A study of Mus musculus with 2 samples.

Results

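The cells described here carried the transcripts of bone-resorbing osteoclasts inside a tumour grown under the skin. They were chosen from measured values. A barcode had to hold at least 500 UMIs (unique molecular identifiers, each counting 1 captured transcript), at least 200 genes and at most 20% mitochondrially encoded UMIs. It also had to hold Cdkn2a, a transcript abundant in the tumour cells, at under 5 UMIs per 10000, at least 2 UMIs each of Acp5 and Ctsk, and a sum of these at 10 or more per 10000 UMIs of the cell. Of 27972 barcodes that passed the cell filters, 889 met the rule. They comprised 777 of 13619 barcodes in the UBD library and 112 of 14353 in the control library. They are called Acp5 and Ctsk cells below and were set beside the C1q macrophages of the same library, barcodes with summed C1qa, C1qb and C1qc at 30 or more per 10000, which numbered 1736 and 2315.

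The series holds 2 libraries of MC38, a mouse colon carcinoma line grown as subcutaneous tumours, profiled cell by cell in droplets from the 3′ ends of transcripts. In 1 library the tumour overexpressed UBD (also called FAT10), a small protein tag related to ubiquitin, and the other was the control, and the study asks about immune evasion and anti-PD-1 treatment. The mouse strain and age, the number of tumours pooled in a library, the construct, and whether any animal received anti-PD-1 are not given in the labels used here. With 1 library per group no test between groups was possible, so each difference describes these libraries without a replicate check, and all intervals are at 95% and cover counting error only.

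Osteoclasts form from cells of the monocyte lineage that receive CSF1 through its receptor Csf1r and RANKL (Tnfsf11) through RANK (Tnfrsf11a). These signals and the ITAM adaptors Tyrobp and Fcer1g raise Nfatc1, the transcription factor that switches on resorption and fusion genes, while Irf8 and Bcl6 hold it back. A mature osteoclast seals off bone, acidifies the gap with a proton pump and chloride antiporter, and digests matrix with cathepsin K and tartrate-resistant acid phosphatase, the products of Ctsk and Acp5. Osteoclasts normally sit on bone, and cells with osteoclast genes in soft tissue tumours are known chiefly from giant cell-rich tumours.

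The UBD library held 14158 barcodes and 204267192 UMIs, and the control library held 14890 barcodes and 173973178 UMIs. The libraries shared 71 barcode sequences, of which 2 belonged to Acp5 and Ctsk cells of the UBD library and 1 to a control one. Acp5 and Ctsk cells were deeply sampled, with a median of 12691 UMIs and 2873 genes in the UBD library and 17403.5 UMIs and 3385.5 genes in the control library. The C1q macrophages held less RNA, with medians of 5756 UMIs in the UBD library and 3979 in the control. Ubd itself was all but absent from the Acp5 and Ctsk cells. It gave 8 UMIs in 3 of 777 cells of the UBD library and 0 UMIs in the control cells, which allows up to 1.66 CPM (UMIs of the gene per 1000000 UMIs of the summed cells).

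Acp5 and Ctsk cells took a larger share of the UBD library. They were 5.71% (5.32 to 6.11, Clopper-Pearson) of its filtered barcodes and 0.780% (0.643 to 0.938) of those of the control library, a ratio of 7.31 (5.99 to 8.99). C1q macrophages went the other way, at 12.7% in the UBD library and 16.1% in the control. There were thus 44.8 Acp5 and Ctsk cells per 100 C1q macrophages in the UBD library and 4.84 in the control. Left without cells that also carried markers of another cell type, the ratio of shares was 8.30, and with every barcode thinned to 2000 UMIs it was 6.86.

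Acp5 (GRCm38 chr9:22126727-22135711, minus strand) and Ctsk (chr3:95499256-95509362, plus strand) are protein-coding genes. Their values, which selected the cells, are given as a description. Summed Acp5 and Ctsk ran from 10.7 to 779.8 UMIs per 10000 with a median of 174 in the UBD library, and from 11.7 to 439 with a median of 93.1 in the control. Under 15 per 10000 lay 10 UBD and 3 control cells, and 20 UBD and 11 control cells had just 2 UMIs of the scarcer gene. Just outside the rule 22 UBD and 3 control barcodes had 2 or more UMIs of each gene but a sum under 10. A further 265 UBD and 66 control barcodes had at least 1 UMI of each gene and stayed outside, with median sums of 4.43 and 5.89 per 10000. The Cdkn2a limit kept out 143 UBD and 61 control barcodes that met the rest of the rule. Their sum of 4 Y-linked genes was 26.9 CPM in the UBD library and 30.3 CPM in the control, between that of the Acp5 and Ctsk cells, at 78.0 and 65.8 CPM, and that of the barcodes with Cdkn2a at 5 or more per 10000, at 2.72 and 4.47 CPM.

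The 3 given markers that the rule did not use were present in most cells. Mmp9, a gelatinase that osteoclasts secrete, ran from 0 to 263 UMIs per 10000 with a median of 42.6 in UBD cells and from 0 to 139.8 with a median of 24.4 in control cells, and it was at 0 in 42 of 777 and 3 of 112 cells. Atp6v0d2, the proton pump subunit of osteoclasts, had medians of 8.27 and 5.27 per 10000 and highest values of 27.0 and 21.5. Ckb, the brain-type creatine kinase that supplies ATP to resorbing osteoclasts, had medians of 9.74 and 15.4 per 10000. Ckb differed most from cell to cell: the middle 50% of UBD cells spanned 1.81 to 31.5 and 137 of them had none, while the middle 50% of control cells spanned 5.35 to 32.4 and 8 had none.

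**Figure D1:**
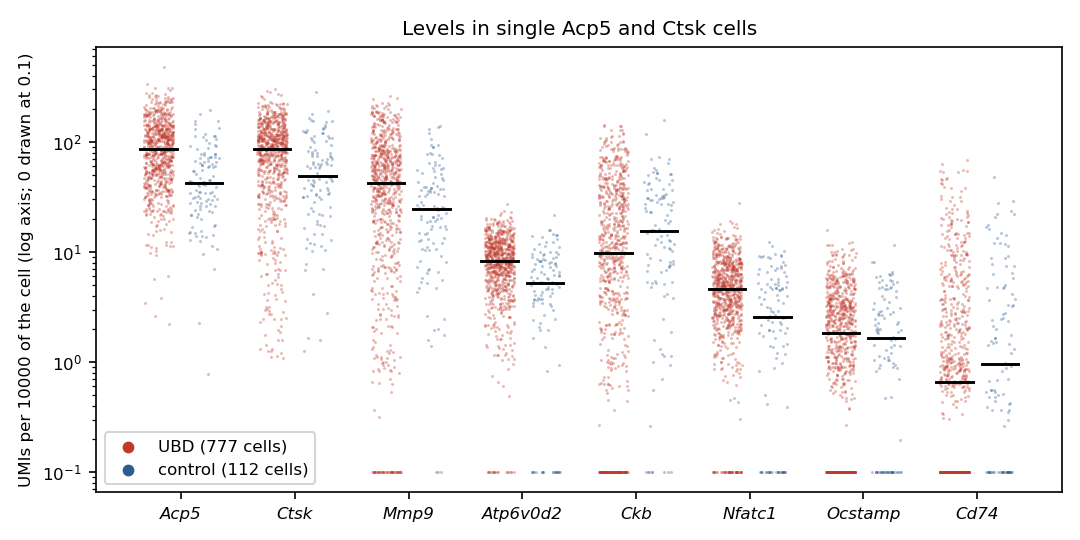
UMIs per 10000 of the cell (log axis, 0 drawn at 0.1) of 8 genes in every Acp5 and Ctsk cell, with the 777 UBD cells left of the 112 control cells and a black bar at the median. The distributions of the 2 libraries overlap for every gene. The UBD median is higher for Acp5 (85.9 against 42.3), Ctsk (86.6 against 48.5), Mmp9 and Atp6v0d2 and lower for Ckb (9.74 against 15.4).

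The markers were also compared at equal depth, as the share of cells with a UMI after thinning every cell to 2000 UMIs, which left out 8 UBD and 9 control Acp5 and Ctsk cells. Mmp9 was then seen in 86.9% of UBD and 90.3% of control Acp5 and Ctsk cells (94.6% and 97.3% unthinned). It was seen in 4.97% and 2.32% of C1q macrophages, and in 6.88% and 0.469% of barcodes with T cell receptor complex transcripts, which should lack it. The T barcodes had median depths of 2635.5 UMIs in the UBD library and 3542 in the control. Atp6v0d2 was seen in 77.9% and 72.8% of thinned Acp5 and Ctsk cells (97.8% and 83.0% unthinned), against 0.573% and 0% of T barcodes. Ckb was less particular to the cells. It was seen in 66.6% and 77.7% of them after thinning (82.4% and 92.9% unthinned), but also in 19.1% and 31.4% of C1q macrophages. In T barcodes Ckb was seen in 10.9% and 3.52%. Nfatc1, the lead transcription factor of osteoclasts, was seen in 60.2% and 45.6% (94.6% and 76.8% unthinned), against 10.6% and 13.8% of T barcodes, which also use the gene. Calcr, the calcitonin receptor of mature osteoclasts, was seen without thinning in 48 of 777 UBD cells (6.18%) and 8 of 112 control cells (7.14%), and in none of the 1736 and 2315 C1q macrophages.

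Levels of other cell types' markers set limits to the purity of the gate. Summed over 11 macrophage markers, Acp5 and Ctsk cells had 1973 CPM in the UBD library and 3003 CPM in the control, against 24923 and 24806 CPM in C1q macrophages. C1q itself was at 0 in 459 of 777 UBD and 46 of 112 control cells, while 18 and 6 cells reached the macrophage limit of 30 per 10000. The 10 neutrophil markers summed to 6.35 CPM in the UBD and 77.5 CPM in the control cells, with Ly6g, Camp and Ngp at 0 in both, and the 8 T cell markers summed to 23.0 and 10.5 CPM. The 7 endothelial markers summed to 7.02 CPM in UBD and 128.9 CPM in control cells, where a single cell held 96.4% of the UMIs of Egfl7, 1 of the 7. Fibroblast markers summed to 307 and 451 CPM over 10 genes, against 29164 and 30062 CPM in fibroblast barcodes. The 8 tumour cell markers summed to 94.6 CPM in UBD and 39.3 CPM in control cells, where Krt18, Krt8, Krt19 and Cldn4 were at 0. They summed to 97.6 and 74.4 CPM in C1q macrophages, and to 2107 and 1989 CPM in barcodes with high Cdkn2a. In all, 45 UBD cells (5.79%) and 19 control cells (17.0%) carried at least 10 UMIs per 10000 of the neutrophil, fibroblast, T, NK, endothelial or dendritic markers, or C1q at the macrophage limit, and Scrublet marked 43 UBD and 0 control Acp5 and Ctsk cells as doublets. Tumour cell markers were not part of the count of 45 and 19 cells.

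Against C1q macrophages of the same library, Acp5 and Ctsk cells carried far more transcript of osteoclast effector genes and far less of MHC class II genes, in both libraries. At 50 or more CPM in 1 of the sets and 50 or more UMIs in both together, 419 of 2866 genes (14.6%) were at least 2-fold higher in Acp5 and Ctsk cells of the UBD library, and 514 (17.9%) were at least 2-fold lower. In the control library 465 of 3126 genes (14.9%) were higher and 707 (22.6%) lower. The higher genes shared by both libraries numbered 319, which is 76.1% of the UBD and 68.6% of the control list, and the lower ones 426, 82.9% and 60.3%. The median log2 ratio over all genes tested was 0.06 and 0.01, and since the gate was set on transcripts of the same cells, all ratios against the macrophages are descriptions.

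The 12 genes farthest above the macrophages in both libraries include receptors, ion transporters and fusion genes of osteoclasts. Oscar (ENSMUSG00000054594), the osteoclast-associated receptor that costimulates RANK signalling through Fcer1g, was 113 CPM in UBD Acp5 and Ctsk cells, against 0.187 CPM (2 UMIs) in UBD macrophages, a ratio of 605 (167 to 5002). In the control library it was 60.9 CPM in Acp5 and Ctsk cells and 0 UMIs in macrophages, at least 214-fold higher at a limit of 3 UMIs over the macrophages. Thinned to 2000 UMIs, 20.2% of UBD and 9.71% of control cells showed Oscar (48.6% and 31.2% unthinned), against 0% of macrophages and T barcodes in both libraries. Car2, the carbonic anhydrase that supplies protons for resorption, was 344 CPM in Acp5 and Ctsk cells and 1.59 CPM in macrophages of the UBD library, and 229 and 2.18 CPM in the control. Slc9b2, a sodium-proton exchanger of osteoclasts, was 368 against 2.34 CPM in the UBD library and 214 against 0.759 CPM in the control. Atp6v0d2 was 848 against 7.01 CPM in the UBD library, 121-fold higher (96.5 to 154), and 686 against 1.42 CPM in the control, 481-fold higher (291 to 863). Mmp9 was 154-fold higher in the UBD (139 to 171) and 164-fold higher in the control library (144 to 187). Ocstamp, a membrane protein needed for fusion, was 234 against 4.48 CPM in the UBD and 252 against 1.71 CPM in the control library.

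The other 6 of these genes have less settled roles in osteoclasts. They were the metallothionein Mt3 (284 against 1.401 CPM in the UBD and 556 against 0.570 CPM in the control library), the receptor tyrosine kinase Mst1r, the actin-severing protein Scin, the coenzyme Q kinase Coq8a, the cytochrome P450 Cyp2s1 and the surface glycoprotein Cd200. Mst1r was 106 against 0.374 CPM in the UBD and 57.5 against 0.285 CPM (3 UMIs) in the control library, a control ratio of 202 (67.2 to 996).

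**Figure D2:**
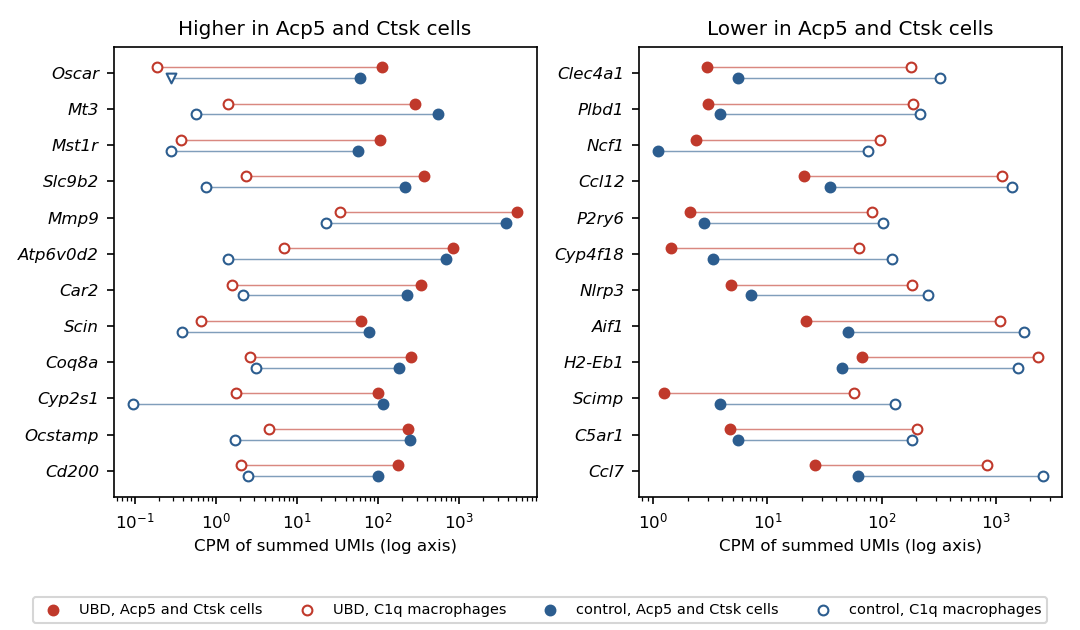
CPM of summed UMIs (log axes) of the 12 genes farthest above (left) and the 12 farthest below (right) the C1q macrophages in both libraries. Filled points are Acp5 and Ctsk cells, open points C1q macrophages, with UBD in red above control in blue, and the open triangle marks 0 UMIs drawn at the limit of 3 UMIs. Every gene is displaced the same way in both libraries, as the choice of genes requires.

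The promoters of Ctsk and Oscar are shown because Nfatc1 is known to act on both genes. Ctsk was used to select the cells, and Oscar was not. They are the 250 bases before and 50 after the annotated start in RefSeq on GRCm38.p6, at chr3:95498960-95499259 on the plus strand and chr7:3616108-3616407 on the minus strand. Capitals mark the NFAT core GGAAA or its reverse complement TTTCC and, in Oscar, the MITF E-box CATGTG, read here on the other strand as CACATG.
Ctsk: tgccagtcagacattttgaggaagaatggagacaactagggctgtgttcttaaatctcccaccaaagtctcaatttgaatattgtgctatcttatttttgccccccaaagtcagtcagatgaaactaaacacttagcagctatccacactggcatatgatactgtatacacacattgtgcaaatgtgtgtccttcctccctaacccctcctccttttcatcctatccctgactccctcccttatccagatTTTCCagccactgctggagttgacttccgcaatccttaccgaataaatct
Oscar: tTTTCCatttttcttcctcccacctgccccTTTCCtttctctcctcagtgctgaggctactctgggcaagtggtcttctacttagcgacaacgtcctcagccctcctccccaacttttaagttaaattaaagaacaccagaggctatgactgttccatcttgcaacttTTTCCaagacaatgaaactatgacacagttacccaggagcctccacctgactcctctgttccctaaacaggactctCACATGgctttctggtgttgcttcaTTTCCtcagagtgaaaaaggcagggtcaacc
The Ctsk window holds the NFAT core once and the Oscar window 4 times, with 1 E-box in Oscar. The core is short and is found in 61.3% of the 32851 promoters of this length in the table, and CATGTG in 14.2%. The AP-1 motif TGANTCA, searched on both strands like the others and held by 7.81% of promoters, is in neither window. Of the 12 genes named above, 8 have promoters in the table, and 5 of them hold the NFAT core. Acp5 has 3 annotated starts, each with the core in its window.

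Genes of resorption and of the proton pump were broadly higher. Of the resorption list without Acp5 and Ctsk, 10 of 13 tested genes were at least 2-fold higher in UBD Acp5 and Ctsk cells and 11 of 13 in control cells, with median log2 ratios of 2.74 and 2.27. Acp2, a lysosomal acid phosphatase of many cell types, was the 1 gene lower in both, at 18.2 against 69.0 CPM in the UBD and 24.9 against 89.5 CPM in the control library. The chloride antiporter Clcn7 was 70.4 against 13.7 CPM in the UBD and 92.4 against 28.6 CPM in the control library. The bicarbonate exchanger Slc4a2 was 119 against 13.1 and 138 against 17.3 CPM, and Snx10, a sorting nexin of ruffled border traffic, 473 against 57.8 and 312 against 53.4 CPM. Itgb3, the integrin chain of the sealing zone, was low even in Acp5 and Ctsk cells, at 22.2 and 13.3 CPM, against 1.12 and 2.37 CPM in macrophages. Thinned to 2000 UMIs, 4.29% of UBD and 1.94% of control Acp5 and Ctsk cells showed Itgb3, against 1.43% and 2.35% of T barcodes. Of the V-ATPase list, 12 of 15 genes were higher in the UBD and 11 of 15 in the control library, with medians of 1.808 and 1.405. Atp6v0d1, the widely used partner of Atp6v0d2, was 99.2 against 128 CPM in the UBD and 106 against 131 CPM in the control library. Both differences were under 2-fold, and 0 genes of this list were at least 2-fold lower in either library.

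Fusion genes and RANK pathway genes were mixed. Dcstamp, needed with Ocstamp for fusion, was 231 CPM in Acp5 and Ctsk cells of both libraries, against 7.19 CPM in UBD and 1.23 CPM in control macrophages. Other genes of the fusion list were lower, and 4 of 9 tested genes were at least 2-fold higher in each library while 3 (UBD) and 4 (control) were lower. Cd81, a tetraspanin, was 38.0 against 614 CPM in the UBD and 27.7 against 184 CPM in the control library. Tnfrsf11a, which encodes RANK, was 79.3 against 29.6 CPM and 86.9 against 38.8 CPM. Csf1r hardly differed, at 274 against 270 CPM in the UBD and 227 against 220 CPM in the control library, and the adaptor Tyrobp was 2676 against 2631 and 2598 against 2495 CPM. Its relative Fcer1g was lower, at 657 against 3452 CPM in the UBD and 1317 against 5272 CPM in the control library. Of 8 tested genes of this list 2 were higher and 2 lower in the UBD library, and 2 and 3 in the control, with medians of 0.02 and -0.08.

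The osteoclast transcription factors were mixed, with Nfatc1 among the higher ones. Nfatc1 (ENSMUSG00000033016) was 511 CPM (497 to 524) in Acp5 and Ctsk cells and 24.4 CPM in macrophages of the UBD library, and 405 CPM (376 to 435) and 26.3 CPM in the control. Jdp2, an AP-1 family member required for osteoclasts in mice, was 496 against 40.0 and 425 against 40.9 CPM. Ppargc1b, a coactivator of mitochondrial genes, was 105 against 6.54 and 71.9 against 3.89 CPM, Mitf 79.9 against 18.9 and 74.1 against 17.2 CPM, and Prdm1, a repressor of the anti-osteoclast factors, 161 against 27.6 and 88.0 against 28.9 CPM. These 5 were the genes of their list that were at least 2-fold higher, of 10 tested in the UBD and 11 in the control library, where Fos and Myc were at least 2-fold lower. The medians were 1.51 and 0.44, and the control median changed sign with the processing, down to -0.17. Among repressors, 5 of 6 tested genes in the UBD and 7 of 7 in the control library were at least 2-fold lower. Irf8 was 18.6 against 190 CPM in the UBD and 26.6 against 227 CPM in the control library.

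Acp5 and Ctsk cells also differed from macrophages in energy genes. Of 20 nuclear genes of oxidative phosphorylation, 19 were at least 2-fold higher in the UBD and 18 in the control library, with median log2 ratios of 1.497 and 1.504. Cox4i1, a subunit of cytochrome c oxidase, was 3467 against 1424 CPM in the UBD and 2530.2 against 1014 CPM in the control library. Of 13 glycolysis genes tested in the UBD and 11 in the control library, none was at least 2-fold higher and 1 was lower in each. Tfrc, the transferrin receptor, was 345 against 18.6 CPM and 200.3 against 12.1 CPM, and Steap4, a metalloreductase, 61.3 against 0.934 and 28.8 against 1.42 CPM. The iron list as a whole did not follow: 2 of 5 tested genes were higher and 2 lower in the UBD library, and 1 of 4 higher and 2 lower in the control, with medians of -0.76 and -0.92. The ferritin chain Fth1 was 7038 against 17985 CPM in the UBD and 8394 against 19674 CPM in the control library. The mitochondrially encoded share was higher, with medians of 4.69% and 3.96% of UMIs in Acp5 and Ctsk cells, against 2.79% and 1.84% in macrophages.

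MHC class II genes, which present antigen to CD4 T cells, were low. All 6 tested MHC class II genes were at least 2-fold lower in both libraries, with medians of -4.61 in the UBD and -4.25 in the control. The invariant chain Cd74 was 344 against 6210 CPM in the UBD and 248 against 3941 CPM in the control library. The 12 genes farthest below the macrophages include H2-Eb1 of the same class, at 67.0 against 2338 and 44.8 against 1571 CPM, the microglia and macrophage marker Aif1, at 22.001 against 1097 and 50.9 against 1781 CPM, and the lectin Clec4a1, at 2.94 against 182 and 5.53 against 327 CPM. The monocyte-attracting chemokine Ccl12 was 21.1 against 1133 CPM in the UBD and 35.4 against 1402 CPM in the control library, and Ccl7, another, 26.2 against 840.0 and 62.5 against 2584 CPM. Nlrp3 of the inflammasome, the complement receptor C5ar1, the oxidase subunit Ncf1, the nucleotide receptor P2ry6, Plbd1, Cyp4f18 and the adaptor Scimp were each under 8 CPM in Acp5 and Ctsk cells of both libraries. MHC class I genes differed less, with medians of -0.52 and -0.27 and 1 of 11 genes at least 2-fold lower in each library, and 1 higher in the UBD library. Cd274, which encodes PD-L1, was 11.7 CPM in Acp5 and Ctsk cells and 69.8 CPM in macrophages of the UBD library, and 29.3 and 144 CPM in the control.

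Lysosomal hydrolases were uneven, with a median log2 ratio of -0.91 in both libraries. The cathepsins Ctsb, Ctsl and Ctss, which macrophages use widely, were lower: Ctss was 193 against 2122 CPM in the UBD and 413 against 2297 CPM in the control library. Glb1, which encodes beta-galactosidase, was higher, at 113 against 26.6 and 68.1 against 18.1 CPM. Apoe, the apolipoprotein of lipid-laden macrophages, was 483 against 9628 CPM in the UBD and 1458 against 9622 CPM in the control library. Arg1, an arginase of suppressive macrophages, was 50.1 against 989 CPM and 12.2 against 308 CPM.

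Dissociation stress genes were also lower in Acp5 and Ctsk cells, 7 of 15 by at least 2-fold in the UBD and 14 of 15 in the control library. Gm42418, whose reads can stem from ribosomal RNA, was 1258 against 2805 CPM in the UBD and 3246 against 11064 CPM in the control library. Whether handling of the cells bears on the macrophage comparison was not tested.

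Few transcripts of the ligand RANKL were captured. Tnfsf11, which encodes RANKL, gave 5 UMIs in the 777 UBD and 0 in the 112 control Acp5 and Ctsk cells. It was detected in T barcodes at 18.7 CPM (31 UMIs) in the UBD and 15.6 CPM (38 UMIs) in the control library, with 7.30 and 4.50 CPM in barcodes with high Cdkn2a and 6.70 and 4.90 CPM in fibroblast barcodes. Neutrophil and endothelial barcodes gave 0 UMIs of Tnfsf11. In the UBD library, with 16 and 17 such barcodes, this allows up to 126 and 26.7 CPM, so they cannot be ranked there. In the control library, with 131 and 46 such barcodes, the limits were 14.7 and 7.62 CPM. Both lie under the 15.6 CPM of control T barcodes, although the first lies within their interval (11.0 to 21.4). Csf1 was 197 and 176 CPM in fibroblast barcodes, 35.6 and 62.0 CPM in those with high Cdkn2a and 3.604 and 4.98 CPM in Acp5 and Ctsk cells. In the control library it was 251 CPM (51 UMIs, 187 to 329) in neutrophil and 94.0 CPM (37 UMIs) in endothelial barcodes. The few UBD barcodes of these sets gave 0 and 1 UMIs of Csf1. Osteoprotegerin, the RANKL decoy encoded by Tnfrsf11b, was 23.2 and 8.58 CPM in fibroblast barcodes. In endothelial barcodes it was 26.7 CPM (3 UMIs) in the UBD and 15.2 CPM (6 UMIs) in the control library.

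Acp5 and Ctsk cells were graded by their level of the selecting genes, in ranges of 10 to 50, 50 to 100, 100 to 200 and 200 or more per 10000 that were set after seeing the data. From low to high, the UBD library had 84, 113, 269 and 311 cells in these ranges, and the control library 28, 34, 35 and 15. The top range thus held 40.0% of UBD and 13.4% of control Acp5 and Ctsk cells. Median depth was even across the UBD ranges, from 12387 to 13207 UMIs, and uneven in the control, at 7093, 14918, 18454 and 20605 UMIs.

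Other osteoclast genes were graded with the selecting genes in both libraries. Mmp9 was 318, 1593, 3875 and 9573 CPM over the UBD ranges and 711, 2307, 3952 and 9075 CPM over the control ranges. Ckb was 82.5, 365, 1302 and 4079 CPM in the UBD library and 388, 1205, 2923 and 5837 CPM in the control, and Oscar 6.01, 11.4, 55.1 and 244 CPM in the UBD library and 0, 9.64, 67.7 and 198 CPM in the control. Nfatc1 spanned a narrower range, at 357, 404, 522 and 590 CPM (UBD) and 173, 333, 475 and 632 CPM (control). The summed proton pump genes, 5429 to 14749 CPM in the UBD and 5039 to 13610 CPM in the control library from lowest to highest range, and the summed nuclear oxidative phosphorylation genes, 13089 to 25753 and 12101 to 23068 CPM, followed. Median mitochondrial shares were 2.27%, 3.03%, 4.17% and 8.35% in the UBD and 3.55%, 3.38%, 3.98% and 6.74% in the control library. Over all genes, 176 were higher and 269 lower in the top than in the bottom range of both libraries, led on the higher side by Oscar, Mt3, Cfap45, Myo1d and Steap4.

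**Figure D3:**
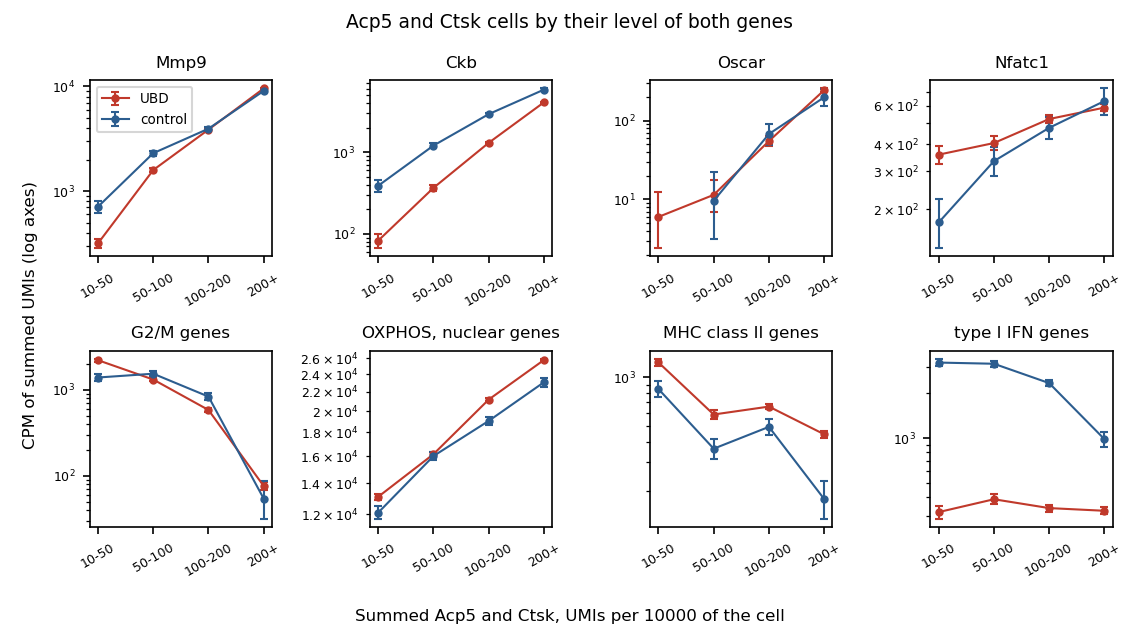
CPM of summed UMIs (log axes, which do not start at 0) with Poisson intervals in Acp5 and Ctsk cells of 4 ranges of summed Acp5 and Ctsk per 10000, for UBD (red) and control (blue). Mmp9, Ckb, Oscar, Nfatc1 and the oxidative phosphorylation sum are higher in each higher range, and the G2/M sum is lowest in the top range. The interferon sum is lower in UBD cells in all 4 ranges, and the control Oscar value of 0 in the lowest range is not drawn.

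Cell cycle genes were low in the top range. The sum of 18 G2/M genes was 2205, 1314, 582 and 76.2 CPM over the UBD ranges and 1388, 1536, 833 and 54.3 CPM over the control ranges. Pclaf, Prc1, Tk1, Cenpe and Birc5, genes of replication and mitosis, led the genes lower in the top range. Birc5, for example, was 7.39 CPM in the top and 279 CPM in the bottom UBD range, and 0 and 206 CPM in the control. Cells with G2/M genes at 20 or more per 10000, a limit also set after seeing the data, were 82 of 777 (10.6%, 8.48 to 12.9) in the UBD and 13 of 112 (11.6%, 6.33 to 19.03) in the control library. Among C1q macrophages such cells were 10.4% in the UBD and 3.63% in the control library. The cycling Acp5 and Ctsk cells had a median sum of Acp5 and Ctsk of 62.7 per 10000, against 185 in the rest, in the UBD library, and 70.4 against 98.5 in the control. Cycling UBD cells carried Mmp9 at 1403 CPM, against 5832 CPM in the rest, but Nfatc1 at 434 against 522 CPM. In the control library Mmp9 was 2203 against 4153 CPM and Nfatc1 246 against 446 CPM.

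Between the libraries, Acp5 and Ctsk cells of UBD tumours had lower levels of interferon-stimulated genes and higher levels of cholesterol synthesis genes. Of 2581 genes at 50 or more CPM in 1 library, 81 (3.14%) were at least 1.5-fold higher in the UBD cells, and 230 (8.91%) were at least 1.5-fold lower. These counts depend on the processing: with cells thinned to 2000 UMIs they were 300 and 376, and with equal weights for each cell 157 and 372. Some osteoclast effector genes passed 1.5-fold. The V-ATPase genes had a median log2 ratio of 0.31 with 0 of 15 beyond 1.5-fold, nuclear oxidative phosphorylation 0.28 with 0 of 20, and resorption genes 0.20 with 3 of 12 higher, against 0.01 for all genes. The 3 were Car2, at 344 CPM in UBD and 229 CPM in control cells, Snx10, 1.52-fold higher (1.39 to 1.66), and Itgav, 1.59-fold higher. Itgav encodes the alpha chain of the sealing zone integrin. Outside the resorption list, Oscar and Slc9b2, with CPM given above, were also at least 1.5-fold higher in UBD cells. Within the 4 ranges Car2 was 1.13, 0.879, 1.22 and 1.05 times the control level. Only its interval in the range of 100 to 200 per 10000 (1.02 to 1.47) excluded 1. Slc9b2 was 1.49, 1.57, 1.52 and 1.07 times the control level within the ranges. Oscar was 1.19, 0.813 and 1.23 times in the upper 3, and all 3 intervals included 1.

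Interferon-stimulated genes were lower in UBD Acp5 and Ctsk cells. Of the 13 genes of the type I interferon list that passed the level filter, 11 passed through the control cells alone, so the list is given whole. With no level filter, 16 of its 16 genes lay at least 1.5-fold below the control, the median log2 ratio was -4.11, and the list summed to 338 CPM in UBD and 2511 CPM in control cells. No share over all genes was taken without the filter. In a single cell the 16 genes of the list summed to a median of 2.32 UMIs per 10000 in the UBD library (middle 50% 1.06 to 4.13) and 19.2 in the control (9.46 to 32.2), so the middle ranges did not overlap. Ifit3, an interferon-induced antiviral gene, was 1.90 CPM (1.16 to 2.93) in UBD cells and 110 CPM (95.3 to 127) in control cells, 58.1-fold lower in the UBD library (36.6 to 97.1). It was seen in 6 of 777 UBD and 42 of 112 control cells. Ifit1 of the same family was 3.13 CPM in UBD and 128 CPM in control cells, 40.8-fold lower (28.3 to 60.7). Irf7, the factor that amplifies interferon production, was 8.91 and 286 CPM, 32.1-fold lower (25.7 to 40.4). Ifi27l2a, another interferon-induced gene, was 236 CPM in UBD and 4104 CPM in control cells, and it was seen in 347 of 777 UBD and 110 of 112 control cells.

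The other 8 of the 12 lowest genes are interferon-induced as well. The deconjugase Usp18 was 31.2-fold, Phf11d 25.5-fold, Ifi44 25.2-fold, the oligoadenylate synthetase genes Oas3, Oasl2 and Oasl1 21.8-fold, 21.6-fold and 20.3-fold, and the DNA-binding Ifi209 and Ifi205 18.0-fold and 17.7-fold lower in UBD cells. The Ifit, Oas and Ifi200 genes have close paralogs, so their separate values are uncertain. Without the cells that carried other cell types' markers, the UBD to control ratios of these 12 genes ran from 0.013 to 0.055. The same 12 were lower in UBD macrophages, by log2 ratios from -4.32 to -2.12, and the list there had a median of -3.41, so the difference was not confined to the Acp5 and Ctsk cells. Within the 4 ranges of Acp5 and Ctsk the summed list was 0.0983, 0.122, 0.144 and 0.329 times the control level, and control cells of the top range carried 984 CPM, against 3225 CPM in the lowest range.

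The promoters of Ifit3 and Ifit1 are shown because they had the lowest ratios and hold matches to the interferon-stimulated response element. They lie at chr19:34583279-34583578 and chr19:34640639-34640938, both on the plus strand (RefSeq, GRCm38.p6). Capitals mark matches to GAAA, any 2 bases and GAAA again, searched on both strands.
Ifit3: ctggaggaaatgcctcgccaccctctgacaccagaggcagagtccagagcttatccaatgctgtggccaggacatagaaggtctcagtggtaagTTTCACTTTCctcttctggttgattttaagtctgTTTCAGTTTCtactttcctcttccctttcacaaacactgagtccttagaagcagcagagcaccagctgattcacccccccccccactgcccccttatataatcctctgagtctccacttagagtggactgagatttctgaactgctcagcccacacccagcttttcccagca
Ifit1: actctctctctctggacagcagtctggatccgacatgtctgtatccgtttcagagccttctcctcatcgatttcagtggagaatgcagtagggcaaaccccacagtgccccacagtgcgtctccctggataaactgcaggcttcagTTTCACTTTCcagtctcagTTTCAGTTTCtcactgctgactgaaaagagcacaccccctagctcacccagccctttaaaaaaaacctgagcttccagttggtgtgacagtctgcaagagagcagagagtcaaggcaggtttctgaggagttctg
Each window holds 2 matches. Such a match is present in 3.44% of all promoters in the table and in 4 of the 10 lowest genes that have a promoter there, with Ifi205 and Oas3 as the others.

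Genes of MHC class I presentation were lower too, 8 of 11 tested by at least 1.5-fold, with a median of -0.79. B2m, the light chain, was 1206 CPM in UBD and 2343 CPM in control Acp5 and Ctsk cells, and the heavy chain H2-K1 was 886 and 1469.6 CPM. Summed over the list, the UBD to control ratio was 0.594, 0.648, 0.603 and 0.622 over the 4 ranges. In macrophages the list had a median of -0.66. MHC class II genes had a median of 0.46, none of 4 genes beyond 1.5-fold, and the sign of that median depended on the processing. It was -0.07 with predicted doublets removed, -0.11 with thinned cells and -0.86 with equal weights for each cell. The summed MHC class II list was 1.46, 1.62, 1.33 and 2.50 times the control level over the 4 ranges, and all 4 intervals lay above 1. In macrophages the MHC class II median was 0.66, with 5 of 6 tested genes at least 1.5-fold higher.

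Cholesterol synthesis genes were higher in UBD Acp5 and Ctsk cells. Of the 6 list genes that passed the level filter, 4 passed through the UBD cells alone, so here too the list is given whole. With no level filter, 12 of its 14 genes were at least 1.5-fold higher and 0 lower, with a median log2 ratio of 1.403, and the list summed to 768 CPM in UBD and 308 CPM in control cells. No share over all genes was taken without the filter, so the count has none to be set against. Hmgcs1, the synthase at the start of the mevalonate pathway, was 110 CPM (103 to 116) in UBD cells and 27.1 CPM (20.1 to 35.8) in control cells, 4.04-fold higher (3.03 to 5.49). Fdps, the farnesyl pyrophosphate synthase that nitrogen-containing bisphosphonates block in osteoclasts, was 141 and 54.8 CPM, 2.57-fold higher (2.10 to 3.18). Idi1 of the same pathway was 2.79-fold and the sterol oxidase Msmo1 3.03-fold higher. Scd2, a fatty acid desaturase, had the highest ratio of the named genes, at 78.1 CPM in UBD and 17.2 CPM in control cells, 4.55-fold higher (3.18 to 6.74). The summed cholesterol list was 1.56, 1.96, 3.15 and 2.09 times the control level over the 4 ranges, and all 4 intervals lay above 1. In C1q macrophages Scd2 was 2.63-fold, Hmgcs1 1.76-fold and Fdps 3.57-fold higher in the UBD library. Of the whole list 9 of 14 genes were at least 1.5-fold higher there, at lower levels: the list summed to 315 CPM in UBD and 192 CPM in control macrophages, and the 1 gene that passed the level filter had a log2 ratio of 0.13.

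The Hmgcs1 promoter is shown because it holds the sterol regulatory element searched for, TCACNCCAC, in capitals. It lies at chr13:119690101-119690400 on the plus strand (RefSeq, GRCm38.p6).
Hmgcs1: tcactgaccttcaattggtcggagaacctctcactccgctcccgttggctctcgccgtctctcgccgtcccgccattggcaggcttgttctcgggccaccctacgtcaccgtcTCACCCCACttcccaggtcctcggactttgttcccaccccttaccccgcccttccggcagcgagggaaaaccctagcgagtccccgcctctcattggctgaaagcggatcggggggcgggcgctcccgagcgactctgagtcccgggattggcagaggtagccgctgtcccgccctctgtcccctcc
The element is in 1.24% of all promoters in the table and, of the 9 highest genes with a promoter there, in Hmgcs1 and Aldoc.

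The other 7 of the 12 highest genes were the glycolytic enzyme Aldoc (3.49-fold), the survival gene Bcl2a1b (2.50-fold), the transcription factor Sox4 (2.49-fold), the autophagy gene Map1lc3a (2.41-fold), the cilium gene Cfap45 (2.33-fold), the stress gene Nupr1 (2.29-fold) and the lactate dehydrogenase Ldhb (2.25-fold). Bcl2a1b has near-identical copies, so its value is uncertain, and 1 control cell held 33.3% of the control Sox4 UMIs. Map1lc3a and Nupr1 were 1.01 and 0.861 times the control level in macrophages, and the other 5 were at least 1.53-fold higher there too. Within the 4 ranges Map1lc3a was 1.15, 10.0, 1.25 and 1.86 times the control level. The 10.0 rests on 4 control UMIs, and the intervals of 1.15 and 1.25 included 1. Nupr1 was 1.54 (0.925 to 2.71), 3.62, 1.47 and 3.15 times within the ranges. With each cell weighted equally Nupr1 was 1.59-fold higher over all cells. Cfap45 and Ldhb also followed the level of Acp5 and Ctsk. In the top range Cfap45 was 121 CPM in UBD and 73.4 CPM in control cells, 1.64-fold higher (1.08 to 2.62), and Ldhb 200.2 and 125 CPM, 1.61-fold higher (1.17 to 2.28), so both ratios were smaller there than over all cells.

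**Figure D4:**
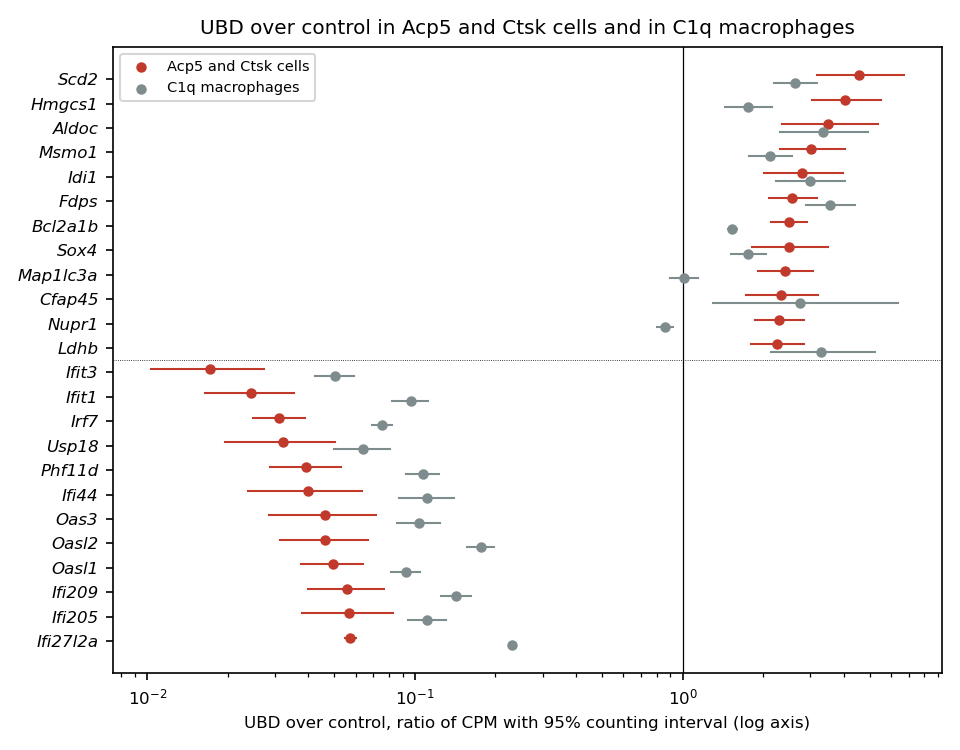
Ratio of CPM in UBD over control (log axis) with its 95% counting interval for the 12 genes highest (top) and the 12 lowest (bottom) in UBD Acp5 and Ctsk cells, shown for Acp5 and Ctsk cells in red above C1q macrophages in grey. The 12 interferon-induced genes lie left of 1 in both cell groups. Nupr1 lies left of 1 in macrophages, at 0.861.

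Ratios between the libraries within ranges of Acp5 and Ctsk differed from those over all cells for several osteoclast genes, and a larger share of UBD than of control cells lay in the top range. Ckb was 0.836 times the control level over all Acp5 and Ctsk cells (0.809 to 0.863) and 0.213, 0.303, 0.445 and 0.699 times within the 4 ranges. Dcstamp was 1.00 times (0.902 to 1.11) over all cells and 0.332, 0.543, 0.859 and 0.819 times within ranges, and Ocstamp 0.931 times over all and 0.463, 0.420, 0.710 and 0.813 times within. Mmp9 was 1.396-fold higher in the sum but 0.447, 0.690, 0.981 and 1.05 times the control level within ranges. Nfatc1 was 1.26-fold higher in the sum (1.17 to 1.36) and 2.06, 1.21, 1.10 and 0.933 times within ranges. Mt3 was 0.510 times the control level in the sum and 0.257, 0.255 and 0.402 times in the upper 3 ranges. In the lowest range it gave 0 UMIs in UBD cells and 17 UMIs (49.98 CPM) in control cells.

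Some macrophage genes were higher in control Acp5 and Ctsk cells. Of the genes tested, 3 of 7 macrophage markers and 5 of 12 lipid-associated macrophage genes were at least 1.5-fold lower in UBD cells. In these lists 0 and 1 were higher, against 8.91% lower and 3.14% higher of all genes tested. The lists share Apoe, and 1 gene of each passed the level filter through control cells alone. With no level filter, 5 of 11 and 7 of 15 were lower and 0 and 1 higher, and no share over all genes was taken. Apoe was 483 CPM in UBD and 1458 CPM in control cells, 0.331 times the control level (0.316 to 0.347), and 0.360, 0.485, 0.308 and 0.223 times within the 4 ranges. In C1q macrophages it was 1.001 times the control level. Trem2, a lipid receptor that signals through Tyrobp, was 46.1 and 121 CPM in UBD and control Acp5 and Ctsk cells, and 389 and 326 CPM in macrophages. The control cells also more often carried markers of other cell types, as given above, and Gm42418 at 3246 CPM, against 1258 CPM in UBD cells. The part of either in these differences was not tested.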

How the data were processed

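RNA of single cells was counted in 1 UBD and 1 control library. The authors deposited UMI counts per gene and barcode, 1 sparse matrix per library. Cell Ranger, STAR and mm10 are named per the submitters' processing notes, and a software version of 3.1.0 stands per the file headers. Annotation, cell calling and doublet removal before deposit: not given in the sources used here. The cell group, gene lists and comparisons were chosen with earlier results of these data known.

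For each set of cells the counts were added and expressed as CPM with Poisson intervals (exact). Ratios carry conditional binomial intervals and shares Clopper-Pearson intervals, and 0 UMIs is limited at 3 counts. A gene was tested at 50 or more CPM in 1 of the sets compared and 50 or more UMIs, and called by fold alone. Named genes also needed an interval that excluded 1. They are the 12 highest and 12 lowest by the smaller of the ratios against macrophages in both libraries, at 2-fold or more, and the 12 highest and 12 lowest between libraries, at 1.5-fold or more, with a level of at least 20% of the highest in the other cell sets. The rule left out selecting genes, Xist, Y-linked and mitochondrial genes and unnamed gene models. Members of the lists are named as examples. Predicted doublets (Scrublet, expected rate 0.1), 4.13% of UBD and 3.69% of control barcodes, were kept. Gene IDs matched GENCODE vM21 on GRCm38 for 30934 of 31053. The procedures were tested on simulated data. Python 3.11.15, scanpy 1.11.5, numpy 2.4.6, scipy 1.17.1 and pandas 2.3.3 were used. Alternatives were other barcode, doublet, level and rule limits, thinning, equal cell weights and median-ratio scaling. Leaving out cells with other markers, lists with no level filter and the 4 ranges were added after seeing the data. For the lists with no level filter, no share over all genes was taken.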

Additional observations from a re-analysis of the deposited data

Results flagged for a closer look

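A set of 3 genes of the lists went opposite ways between the libraries in the Acp5 and Ctsk cells and in the C1q macrophages, each by at least 1.5-fold with an interval that excluded 1. With 1 library per group the difference between the cell groups was not tested. Fos, an AP-1 gene required for osteoclast formation and also induced by handling, had a UBD over control log2 ratio of 1.00 in Acp5 and Ctsk cells (1192 CPM in UBD, 598 CPM in control) and -0.71 in macrophages (1174 and 1927 CPM). With each cell weighted equally the ratio in Acp5 and Ctsk cells was 1.47 in place of 1.99. Id2, an inhibitor of helix-loop-helix factors, had log2 ratios of 0.70 (142 and 87.4 CPM) and -0.62 (535 and 824 CPM). Ube2c, a mitosis gene, had log2 ratios of -0.75 (113 and 190 CPM) and 0.90 (105 and 56.5 CPM).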

How the results depend on the processing

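No paired analysis was possible because each group has 1 library, and for the same reason no replicate could be left out. The share of Acp5 and Ctsk cells in the UBD library, 5.71% as reported, was 4.94% with at most 10% mitochondrial UMIs and 5.16% with barcodes thinned to 2000 UMIs, while the ratio of the shares stayed between 6.07 and 8.30 over the alternatives run. Counts of genes follow the level filter by construction. At 20 CPM they were 725 higher and 870 lower against macrophages in the UBD library, 805 and 1140 in the control library, and 249 and 510 between libraries, and at 100 CPM 252 and 297, 298 and 426, and 37 and 111. Between libraries, thinning gave 300 higher and 376 lower and equal weights for each cell 157 and 372, in place of 81 and 230, and the cause was not tested. The median log2 ratio of the osteoclast repressors between libraries, 0.70 over 3 genes, reversed to -0.13 at 20 CPM and -0.43 with equal weights. Of the other list medians, 620 stayed within their limit and 14 moved, among them MHC class II between libraries, at -0.07, -0.11 and -0.86 with doublets removed, thinning and equal weights, and dissociation stress, at -0.83 with equal weights in place of 0.07. Against control macrophages, the cell fusion median of 0.74 ran from -0.72 to 0.85 over the alternatives. The osteoclast transcription factor median of 0.44 ran from -0.17 to 0.49 there. Without the cells that carried other markers the counts were 432 and 535, 480 and 721, and 81 and 231. Scaling to the median ratio shifted no median of all genes by over 0.1. Depth limits Ubd, Tnfsf11 and Calcr, which rest on few UMIs, and the control values, which rest on 112 cells.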
